A study of Mus musculus with 62 samples.

Results

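The 57 genes described here encode subunits of the mitochondrial respiratory chain that are transcribed in the nucleus. By gene name, 29 were counted with complex I, 4 with complex II, 6 with complex III, 7 with complex IV and 10 with complex V. The mobile carrier cytochrome c (Cycs) completes the set. Ndufa4 was counted with complex I for its name only. The 57 genes were chosen by name and not by a measured value, though with earlier results of these data known. A peak was counted for a gene when the deposited annotation named that gene, in 16 peak lists of histone marks and 4 lists of differentially acetylated regions in mouse skeletal muscle. The 16 lists name 19220 genes in all, and the 57 genes held between 85 and 129 of the 33106 to 49010 H3K27ac peaks of a list.

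Complex I (NADH dehydrogenase) and complex II (succinate dehydrogenase) pass electrons to ubiquinone, complex III hands them to cytochrome c, complex IV (cytochrome c oxidase) reduces oxygen, and complex V (ATP synthase) uses the resulting proton gradient to make ATP. Oxidative muscle carries more of this machinery than glycolytic muscle, and the coactivator PGC1α, acting through ERR and NRF factors, is a known inducer of these genes. H3K27ac marks active promoters and enhancers, and H3K4me2 marks promoters and enhancers more broadly, often on the flanks of strongly transcribed starts.

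All libraries came from male C57BL/6 mice. EDL (extensor digitorum longus, fast and glycolytic), Quad (quadriceps, mostly fast), Sol (soleus, slow and oxidative) and Dia (diaphragm, oxidative) were from sedentary wild-type mice. 4 further groups were quadriceps: Sed mice were sedentary and Ex mice ran voluntarily on wheels for several weeks, both wild type, while mTg mice (genotype PGC1a Tg(+), sedentary) overexpressed Pgc1a from the muscle creatine kinase promoter and Wt mice were their sedentary wild-type littermates. Each group had 2 H3K27ac and 2 H3K4me2 libraries, the small muscles were pooled from several animals, and each peak list was called over both libraries of a group. The H3K27ac libraries held 11.7 to 24.2 M tags and the H3K4me2 libraries 6.41 to 22.7 M tags (M for mega), the shallowest being mTg replicate 1. The tissue label fitted the skeletal muscle markers: the strongest Ckm peak stood between the 81.0 (Ex) and 99.96 (mTg) percentile of all H3K27ac peaks of its list, Myh7, the slow myosin, had a peak in Sol and Dia only, and Myh6, the atrial myosin, had none in any list. Of 6 slow fiber genes, 6 had an H3K27ac peak in Sol and in Dia, 4 in Quad and Wt, 3 in EDL and Ex, and 2 in Sed and mTg. Markers of other cells had H3K27ac peaks too. Pecam1 (endothelium) reached the 96.4 percentile in Wt, Adipoq (adipocytes) had a peak in every list, and Cd68 (macrophages) in Ex and Wt only. Of 4 macrophage genes, 4 had a peak in Ex and Wt and 3 in each of the other lists. Of 2 adipocyte genes, 2 had one in Ex, Wt and mTg and 1 in each of the other lists. All 4 endothelial genes had one in every list. Bulk muscle was profiled, so fewer nuclei of a type and less signal per nucleus cannot be told apart.

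Most respiratory chain genes carried both marks at their start in every muscle and condition. Between 52 and 55 of the 57 genes had an H3K27ac peak named for them in a list, and between 50 and 54 an H3K4me2 peak, where 67.6 to 74.4% and 79.4 to 87.5% of all named genes had one. The authors' promoter class, which places the peak centre from 1000 bp before to 100 bp after the transcription start site (TSS), held far fewer: 23 (EDL) to 31 (Quad) genes for H3K27ac and 7 (EDL) to 18 (mTg) for H3K4me2. The class was small over all named genes too, at 21.97 to 25.76% for H3K27ac and 20.57 to 22.56% for H3K4me2. A TSS region was therefore defined as a peak named for the gene that spans the TSS or lies within 1000 bp of it. By that measure 48 (Ex) to 54 (Quad) genes had an H3K27ac TSS region and 48 to 52 an H3K4me2 TSS region, against 48.6 to 55.5% and 66.8 to 70.1% of all named genes. 43 genes had an H3K27ac TSS region in all 8 groups and 40 an H3K4me2 TSS region in all 8.

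**Figure D1:**
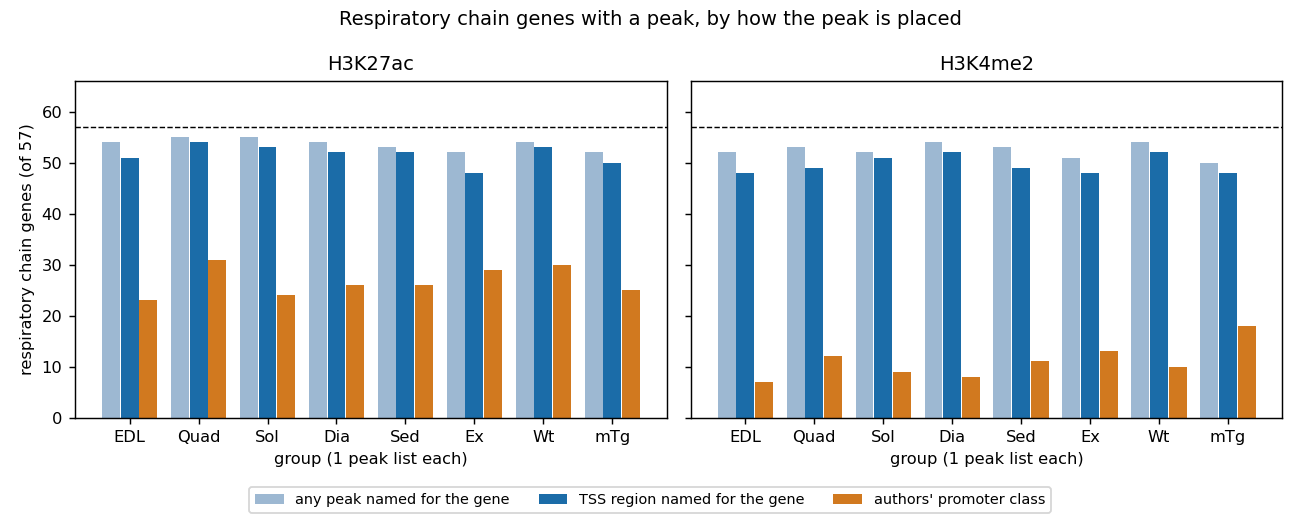
Number of the 57 respiratory chain genes with a peak in each of the 8 groups, for H3K27ac (left) and H3K4me2 (right). Bars give any peak named for the gene, a TSS region, and the authors' promoter class, and the dashed line marks 57. The TSS region bars stay between 48 and 54 while the promoter class bars lie between 7 and 31.

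Many genes without a promoter class peak had a TSS region centred downstream of the start. Of the 27 genes with the promoter class in fewer than 4 of the 8 H3K27ac lists, 24 had a TSS region in at least 1 list and 21 in all 8, and in each of the 24 its median centre lay 126 to 1985 bp downstream. Among them were Cox5a, Cox5b and Cox6c of complex IV, Uqcrc1 and Cyc1 of complex III, Atp5a1 of the ATP synthase head, and Ndufs4 and Ndufs7 of complex I, which had the promoter class in no list and a TSS region in every list. Such placement follows largely from the class, whose window ends 100 bp after the start. H3K27ac TSS regions were centred at a median of 94.5 bp (Ex) to 249 bp (EDL) downstream over members, against 141 to 191 bp over all genes. H3K4me2 was displaced further: its member TSS regions were centred at a median of 416 bp (Ex) to 1130 bp (Wt) downstream of the TSS, against 309 to 350 bp over the TSS regions of all genes. They were also broad, with median widths of 2555 bp (mTg) to 4391 bp (Wt) against 2486 to 2874 bp for all genes. For H3K27ac the member TSS regions had median widths of 1760 bp (Ex) to 2427 bp (mTg), against 1739 to 2072 bp.

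The genes that seemed to lack H3K27ac were read under a neighbour's name. Cycs, Atp5f1 (a stalk subunit of ATP synthase) and Ndufb9 (an accessory subunit of complex I) had no TSS region in any of the 8 H3K27ac lists, but a peak covered the RefSeq start of each in all 8, named 5430402O13Rik, Wdr77 and Tatdn1. The peak over the Cycs start was among the strongest of all peaks, between the 98.3 (Wt) and 99.9 (EDL) percentile. This rank is among all peaks of a list, not among TSS regions. In all, 14 members had their start peak named for another gene in at least 1 H3K27ac list, for example Ndufs1 under Eef1b2 in Ex and mTg, Sdha under Ccdc127 in Wt and Cox4i1 under Emc8 in Ex. 27 of the 57 genes have another annotated start within 1000 bp. With such peaks counted, all 57 genes had a TSS region or an H3K27ac peak over the RefSeq start in each of the 8 lists.

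Promoter sequence is shown for 7 members: 5 of the 6 whose TSS region was hyperacetylated in mTg (Ndufa5, Ndufb5, Cox5b, Ndufs4 and Ndufa8), Sdhd with the largest mTg difference at a TSS, and Cycs. Each line is 300 bases of the GRCm38.p6 RefSeq promoter on the gene's strand, from 250 bases before the start to 50 after it. For Ndufa5, which has more than 1 promoter in the table, the window of the outermost start is shown. Capitals mark any of 7 words searched on both strands: TCAAGGTCA (ERR), AGGTCA (nuclear receptors, contained in the ERR word), GCGCATGC (NRF1), CCGGAAG (ETS), AAGATGGCG (YY1), GGGCGG (SP1) and TGACGTCA (CRE).
Ndufa5: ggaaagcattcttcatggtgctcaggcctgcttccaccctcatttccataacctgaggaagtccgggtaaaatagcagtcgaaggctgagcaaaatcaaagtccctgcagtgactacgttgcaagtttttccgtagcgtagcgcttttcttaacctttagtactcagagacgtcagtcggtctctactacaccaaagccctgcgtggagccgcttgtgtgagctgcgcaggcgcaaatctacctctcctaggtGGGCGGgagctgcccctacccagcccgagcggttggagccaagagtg
Ndufb5: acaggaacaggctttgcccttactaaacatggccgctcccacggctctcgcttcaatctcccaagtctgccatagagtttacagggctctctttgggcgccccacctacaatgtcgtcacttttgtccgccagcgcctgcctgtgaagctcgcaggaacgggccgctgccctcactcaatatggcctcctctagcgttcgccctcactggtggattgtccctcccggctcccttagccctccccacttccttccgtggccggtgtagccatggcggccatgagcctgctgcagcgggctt
Cox5b: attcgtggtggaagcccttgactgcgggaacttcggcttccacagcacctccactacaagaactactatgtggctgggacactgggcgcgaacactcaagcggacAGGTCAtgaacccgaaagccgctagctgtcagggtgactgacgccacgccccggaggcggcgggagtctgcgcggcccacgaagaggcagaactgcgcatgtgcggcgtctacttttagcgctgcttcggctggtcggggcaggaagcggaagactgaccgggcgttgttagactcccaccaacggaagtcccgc
Ndufs4: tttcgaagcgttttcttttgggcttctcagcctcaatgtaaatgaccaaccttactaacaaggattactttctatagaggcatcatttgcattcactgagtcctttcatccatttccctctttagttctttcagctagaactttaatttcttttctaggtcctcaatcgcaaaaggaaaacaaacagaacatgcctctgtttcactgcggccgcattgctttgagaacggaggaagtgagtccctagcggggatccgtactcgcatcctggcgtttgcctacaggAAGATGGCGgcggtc
Ndufa8: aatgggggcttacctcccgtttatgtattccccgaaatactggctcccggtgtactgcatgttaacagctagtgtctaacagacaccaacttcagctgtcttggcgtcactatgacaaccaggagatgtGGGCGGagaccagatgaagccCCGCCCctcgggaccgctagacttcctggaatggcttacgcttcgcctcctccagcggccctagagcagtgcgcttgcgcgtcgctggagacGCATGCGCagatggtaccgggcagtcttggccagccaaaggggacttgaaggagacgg
Sdhd: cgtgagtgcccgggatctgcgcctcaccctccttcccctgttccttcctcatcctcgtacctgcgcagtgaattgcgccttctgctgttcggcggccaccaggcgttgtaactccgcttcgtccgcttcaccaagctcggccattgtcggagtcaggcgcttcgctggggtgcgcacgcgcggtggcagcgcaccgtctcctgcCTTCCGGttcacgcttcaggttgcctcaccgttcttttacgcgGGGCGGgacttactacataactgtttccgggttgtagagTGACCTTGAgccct
Cycs: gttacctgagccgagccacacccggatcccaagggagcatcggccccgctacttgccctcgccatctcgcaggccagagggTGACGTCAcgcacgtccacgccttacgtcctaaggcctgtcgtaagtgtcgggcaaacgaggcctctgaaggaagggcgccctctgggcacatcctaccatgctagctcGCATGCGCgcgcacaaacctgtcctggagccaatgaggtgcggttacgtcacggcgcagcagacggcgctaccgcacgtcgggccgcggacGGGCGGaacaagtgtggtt

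The windows lie at chr6:24527641-24527940 (minus strand, Ndufa5), chr3:32736813-32737112 (plus, Ndufb5), chr1:36691237-36691536 (plus, Cox5b), chr13:114388045-114388344 (minus, Ndufs4), chr2:36049289-36049588 (minus, Ndufa8), chr9:50603800-50604099 (minus, Sdhd) and chr6:50566520-50566819 (minus, Cycs). Sdhd, a membrane anchor of complex II, holds the ERR word in the transcribed part of its window, and Cycs holds the NRF1 and CRE words upstream of its start. Ndufs4 holds the YY1 word just after its start, and Cox5b the nuclear receptor word upstream. The Ndufa5 window not shown holds the nuclear receptor word after its start, and a gene was counted when any of its windows held a word. Of the 57 members, 45 had a RefSeq promoter in the table used. The YY1 word was found in 6 of them (13.3%, against 1.64% of 27025 genes): Ndufa9, Ndufc1, Ndufs4, Ndufs6, Ndufs7 and Atp5j. The NRF1 word was found in 5 (11.1% against 3.05%): Ndufa6, Ndufa8, Sdhb, Uqcrc1 and Cycs. The ERR word was found in 2, Sdhd and Atp5g3 (4.44% against 0.466%), and the CRE word in 3 (6.67% against 2.03%). The ETS word stood in 17.8% of member promoters against 9.93%, the SP1 word in 42.2% against 38.2% and the nuclear receptor word in 17.8% against 18.1%. 13 of the 45 held none of the 7 words. These shares are counts of letters, with no test.

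Levels are given as log2 normalised tags per kb of region, as deposited and divided here by region width. Every list was normalised by itself, so a gene's rank within its list is given beside its level. The H3K27ac level of member TSS regions was high among the TSS regions of all genes, with a median percentile of 92.6 in Sol, 92.0 in mTg, 91.7 in EDL, 89.6 in Quad, 87.1 in Dia, 81.6 in Sed, 80.9 in Wt and 72.5 in Ex. The H3K4me2 level was nearer the middle, with median percentiles of 51.8 (Wt) to 67.8 (Dia). Within each H3K27ac list the SD between the 2 libraries had a median of 0.05 to 0.12 over member TSS regions, except in Ex where it was 0.30.

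**Figure D2:**
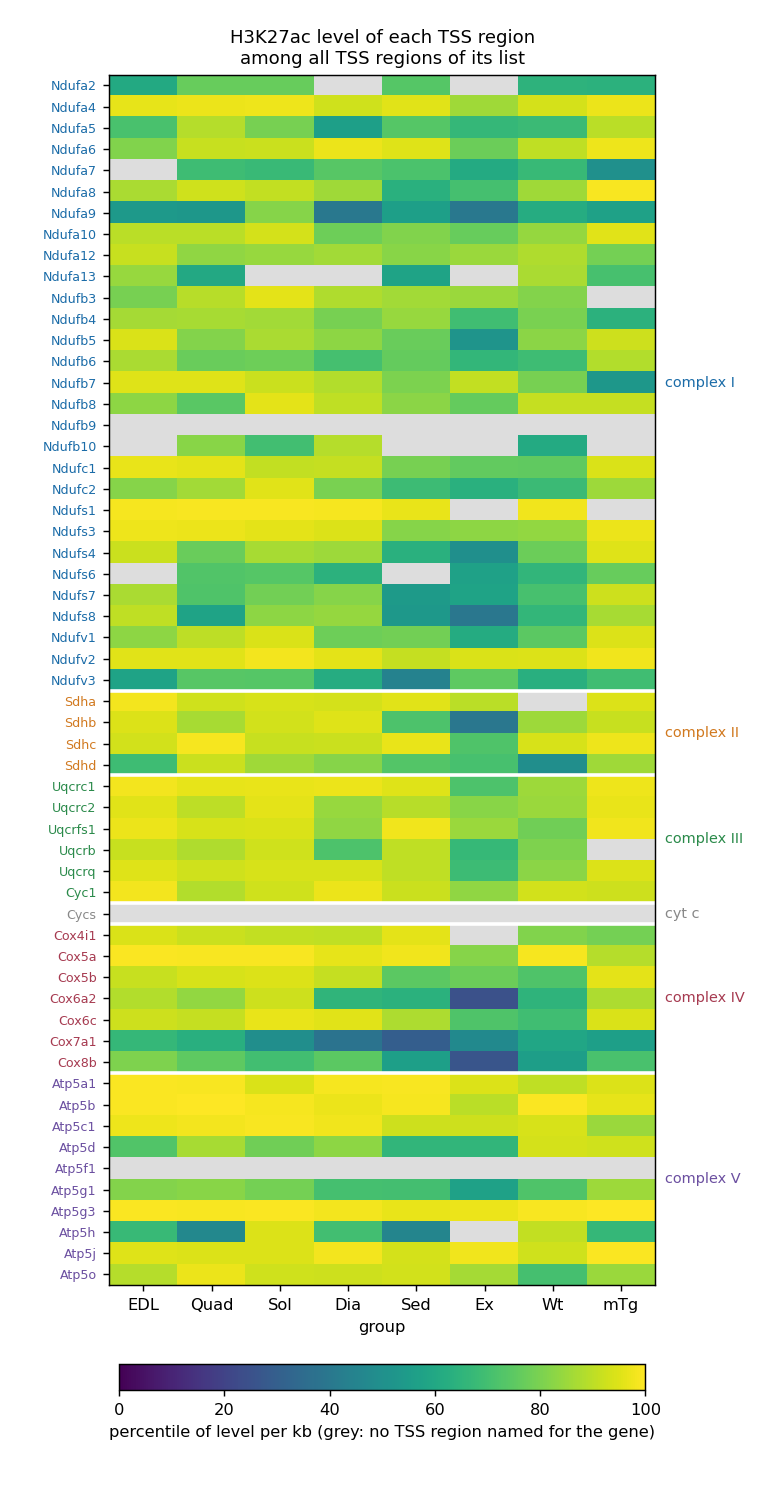
Percentile of the H3K27ac level per kb of each member's TSS region (rows, grouped by complex) among all TSS regions of the same list (columns, 8 groups). Grey cells have no TSS region named for the gene. Complex V genes such as Atp5b and Atp5g3 stay near the top in most lists, Cox7a1 has the lowest median percentile over the lists (52.9), and the Ex column has the lowest median over genes (72.5).

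By complex, ATP synthase had the highest median percentile in every group except EDL, where complex III was above it, and mTg, where complexes III and II were. The lowest single gene by its median over groups was Cox7a1 (52.9). Median percentiles over complex V TSS regions ran from 91.1 to 97.1 across the 8 groups, those of complex III from 77.2 to 96.7, those of complex II from 71.8 to 94.0, those of complex IV from 59.9 to 92.6 and those of complex I from 69.9 to 89.5. Atp5g3, which encodes the c subunit of the proton-driven ring, was between the 96.7 (Sed) and 99.97 (mTg) percentile in every group. Atp5b, the catalytic subunit of ATP synthase, was at 8.44 and 8.39 in Quad, 8.20 and 8.06 in Sol, 8.72 and 8.65 in EDL and 8.58 and 8.58 in Dia. Its rank lay between the 97.1 and 99.7 percentile in these muscles and stood at the 89.6 percentile in the Ex list. Cox7a1, the striated muscle isoform of a complex IV subunit, was at 6.95 and 7.02 in Quad and at 6.74 and 6.72 in Sol, and its percentile ran from 29.7 (Sed) to 66.5 (EDL). Cox8b, another muscle isoform, had the widest promoter class peak of complex IV in Quad, 6068 bp, and ranked between the 26.5 (Ex) and 80.6 (EDL) percentile. Cox6a2, the third muscle isoform, ranked between the 24.7 (Ex) and 92.6 (Sol) percentile.

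Ndufs1, the iron-sulfur subunit at the entry of complex I, was between the 96.6 and 99.2 percentile in the 6 lists that named a TSS region for it. Ndufa9 (median percentile 55.2) and Ndufv3 (66.2) were the lowest of complex I. Sdha, the flavoprotein of complex II, was between the 89.5 and 98.2 percentile in 7 lists. Sdhb, the iron-sulfur subunit beside it, had the broadest member TSS region, with a median width of 7348 bp over the 8 lists. Uqcrc1, a core subunit of complex III, was at the 95.3 to 98.3 percentile in the lists other than Ex (72.0) and Wt (85.4).

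Members carried few distal peaks, but a handful carried many. Between 16 (Sol) and 28 (Wt) members had an H3K27ac peak outside their TSS region, and these made up 38.8 to 58.9% of member peaks against 68.0 to 78.2% of all peaks. In Quad the most were named for Atp5o, a stalk subunit of ATP synthase, Cox6c and Ndufb9 with 6 each, followed by Atp5j with 4, as for Ndufs4. Naming follows the nearest TSS, so a distal peak is not shown to act on the gene it is named for.

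The 4 muscles were compared at matched regions, that is, regions of 2 lists that overlap each other by at least 50% and are each other's best partner. Differences of log2 level per kb were centred on the median over all shared regions. A region was called over 2-fold apart when the centred difference passed 1 and the libraries of the groups, each centred on its own median, did not overlap. No test was run between lists. Single-library pairings set 1 library of a group against 1 of the other, each centred on its own median. The range of the pairings therefore need not hold the median centred difference given beside it.

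Between the oxidative Sol and the Quad, the median respiratory chain start differed by no more than the spread between libraries. Over 52 members with a matched H3K27ac TSS region the median centred difference Sol minus Quad was -0.05 (SD 0.09 over the 4 single-library pairings), against -0.01 over all 7727 TSS regions, and over all 71 matched member regions it was -0.04. Libraries did not overlap and were higher in Sol for 13 members, where the background was 34.6% of TSS regions, and lower for 10, where it was 27.7%. Within the promoter class the largest differences were lower in Sol: Sdhc, the other membrane anchor of complex II, was at 7.71 and 7.63 in Sol and 8.10 and 8.20 in Quad (-0.55), and Atp5b differed by -0.35. Among TSS regions not in the promoter class in both lists Ndufb8, an accessory subunit of complex I, was at 8.07 and 7.66 in Sol and 7.30 and 7.12 in Quad (0.59), and Ndufs8, a core subunit, at 7.36 and 7.44 against 6.85 and 6.93 (0.45). Neither Ndufb8 nor Ndufs8 overlapped between the muscles. Complex V had the lowest median difference, -0.22 over 8 members, with 4 lower in Sol and 0 higher.

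The pattern of Dia against Quad was also mixed. The median was 0.01 (SD 0.10) over 52 members, against 0.09 over all TSS regions (0.01 over all matched member regions), with 20 members higher in Dia (background 45.8%) and 12 lower (background 20.1%). Ndufa5, an accessory subunit of complex I, was at 7.22 and 7.53 in Dia and 7.56 and 7.61 in Quad (-0.68), the Dia region being 3340 bp wide and the Quad region 1754 bp. Ndufa6 differed by 0.45 and Sdhb by 0.46, with the Dia libraries higher for both. EDL against Sol gave a median of 0.16 (SD 0.09) over 49 members, against 0.07 over all TSS regions and 0.16 over the 20% of TSS regions with the highest level. Over all matched member regions it was 0.09. The TSS median was 0.067 without Sol replicate 2, 0.10 without EDL replicate 1 and 0.081 when centred on shared promoter regions. 23 members were higher in EDL (background 36.3%) and 9 lower (background 28.1%). Sdha was at 8.48 and 8.47 in EDL and 7.91 and 7.62 in Sol (0.45), and Cox8b at 7.74 and 7.73 against 7.27 and 6.98 (0.35). Ndufb3, an accessory subunit of complex I, went the other way (-0.42).

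Regions over 2-fold apart between muscles were distal. In Sol against Quad 3.74% of matched regions were called, and among members 2 genes had one. An intergenic peak 17928 bp from Ndufb3 (chr1:58602636-58606015) was at 6.91 and 6.80 in Sol and 5.71 and 4.85 in Quad, a centred difference of 1.51 (2.86-fold). A peak at the same site was at 6.46 and 5.68 in EDL, lower than in Sol (-1.05, background 2.88%). An intronic peak at -13215 bp from the start of Ndufa13 (chr8:69915331-69916215) was lower in Sol (-1.06) and in Dia (-1.27, background 4.27%) than in Quad. EDL against Quad, with 0.643% called, had a peak near Ndufb7 (1.06) and one 25970 bp from Cox4i1 (2.30-fold), both higher in EDL. Dia against EDL, with 3.10% called, had Atp5o higher (1.08) and another Ndufa13 peak lower (-1.26) in Dia. These calls rest on few regions and changed with the matching: at an overlap of 80% the counts were 1 in Sol against Quad, 0 in Dia against Quad, 0 in EDL against Sol, 1 in EDL against Quad and 1 in Dia against EDL.

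In the mTg quadriceps, H3K27ac at respiratory chain starts stood higher than in Wt in all complexes. Over 44 members the median centred difference mTg minus Wt was 0.59 (SD 0.04 over the single-library pairings, which ran from 0.48 to 0.57), against 0.09 over all 6565 TSS regions and 0.18 over the 20% of TSS regions with the highest level. Libraries were higher in mTg without overlap for 37 of the 44 members, where the background was 38.3%, and lower for 3, where it was 25.3%. By complex the medians were 0.59 for complex I (23 members), 0.45 for complex II (3), 0.69 for complex III (5), 0.77 for complex IV (5) and 0.48 for complex V (8). Against the Quad list in place of Wt the median was 0.38 (all TSS regions 0.15), and against Sed it was 0.56 (0.03).

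Sdhd showed the largest difference per kb at a start. Its TSS region was at 7.37 and 7.16 in mTg and 6.31 and 6.26 in Wt, a centred difference of 1.04 (2.06-fold). The Wt region was 4121 bp wide, the widest of the 8 lists (median 2570 bp), and a larger width lowers the level per kb. Sdhd had no region in the mTg hyperacetylated list described below. Uqcrfs1, the Rieske iron-sulfur protein of complex III, was at 7.99 and 7.57 against 6.88 and 6.91 (0.95), and Cox5b, a complex IV subunit, at 7.72 and 7.52 against 6.74 and 6.78 (0.93). Ndufa8 (0.92), Atp5j (0.81), Ndufa5 (0.76) and Ndufs3 (0.75) had the largest differences within the promoter class. The muscle isoforms were unequal: Cox6a2 was at 7.36 and 7.26 against 6.66 and 6.56 (0.77), and Cox7a1 at 6.59 and 6.58 against 6.51 and 6.48 (0.16). The exceptions were Atp5b, at 7.74 and 7.55 in mTg against 7.98 and 7.84 in Wt (-0.19), Ndufa7 (-0.15) and Ndufb4 (-0.10), whose libraries were lower in mTg without overlap. The start peak of Cycs was at 7.73 and 7.52 against 7.32 and 7.31 (0.38). Uqcrfs1 was named after its values were seen.

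3 members were over 2-fold apart between mTg and Wt, all higher in mTg, where 4.64% of all matched regions were called in either direction: Sdhd at its start, a distal peak of Atp5g1 (at -17330 bp, a difference of 1.17) and a distal peak of Cox4i1 (25871 bp from the start, at 6.05 and 6.66 against 5.36 and 5.35, a difference of 1.07). Over all 73 matched member regions the median was 0.42. Without division by region width the count was 12, and at an overlap of 80% it was 1, both given without a background share. Marker lists moved too: of the striated muscle genes Acta1, Ckm and Des, 2 of 3 TSS regions were higher in mTg without overlap (median 0.61), of the 4 endothelial genes 2 were higher (median 0.18), of the macrophage genes 1 of 2 with a TSS region was lower (median -0.18), and the 1 fibroblast gene with a TSS region was lower (-1.03). Their part in the respiratory chain difference was not tested.

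**Figure D3:**
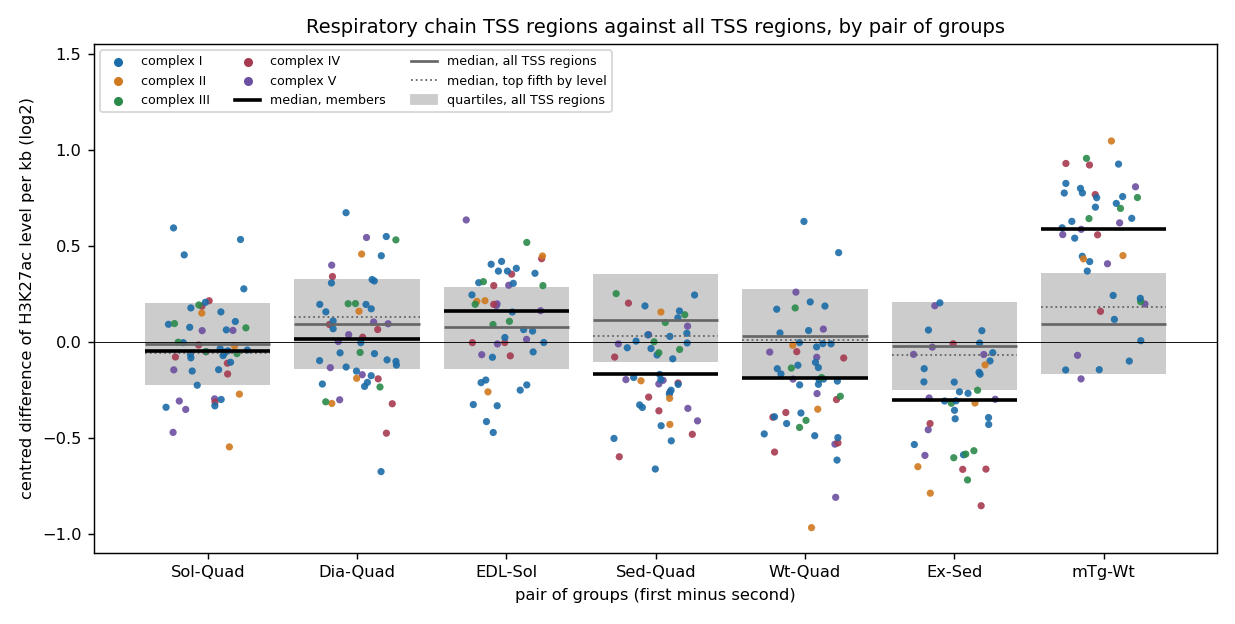
Centred log2 difference of H3K27ac level per kb at TSS regions, first group minus second, for 7 pairs of groups. Points are members coloured by complex, black bars their median, grey bands and bars the quartiles and median of all TSS regions, and dotted bars the median of the 20% of TSS regions with the highest level. Most mTg-Wt points lie above the grey band (median 0.59), and most Ex-Sed points lie below 0 (median -0.30).

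After voluntary exercise the members stood lower, not higher, than in Sed. Over 44 members the median centred difference Ex minus Sed was -0.30 (SD 0.14, pairings from -0.42 to -0.14), against -0.02 over all 8433 TSS regions and -0.07 over the 20% with the highest level. Over all 63 matched member regions it was -0.27. Without Ex replicate 2 the TSS median was -0.19. Against the Quad list in place of Sed it was -0.56, against 0.04 over all TSS regions. Of 47 members 36 were lower (background 20.7%) and 0 higher (background 46.4%). Against Wt it was -0.35, against -8.4e-05 over all TSS regions. Of 45 members 21 were lower (background 22.7%) and 2 higher (background 39.9%). Against Sed, libraries were lower in Ex without overlap for 26 members (background 23.2%), higher for 2 (background 26.3%) and overlapping for 16. The medians were -0.66 for complex IV (5 members), -0.58 for complex III (6), -0.49 for complex II (4), -0.21 for complex I (21) and -0.18 for complex V (8). Cox6a2 was at 6.38 and 6.16 in Ex and 7.31 and 7.14 in Sed (-0.85), and Sdhc differed by -0.79 (1.73-fold) with no overlap. Cox8b (-0.66), Uqcrb (-0.61), a small subunit of complex III, and Atp5b (-0.59) followed among promoter class peaks. None of the members was over 2-fold apart, where 3.17% of all matched regions were. Without division by width 4 were, a count given without a background share.

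Members also stood lower in untreated quadriceps when the Sed and Wt lists were set against the Quad list. Sed against Quad gave a member median of -0.17 against 0.11 over all TSS regions, with 24 members lower (background 15.0%) and 9 higher (background 43.3%), and Wt against Quad gave -0.19 against 0.03, with 27 lower (background 22.9%) and 9 higher (background 39.6%). In Wt against Quad a distal Atp5j peak was 1.60 lower, where 1.35% of regions were called. Wt against Sed gave no such shift: the member median was -0.03 against -0.07, with 19 lower (background 31.8%) and 14 higher (background 18.6%). These comparisons share lists with the others, and no treatment divides them. The Ex libraries also differed more from each other than those of other groups did, with for example Uqcrc1 at 7.59 and 6.80 in Ex and at 7.95 and 8.08 in Sed. In the Ex list the markers Ckm and Acta1 stood at the 81.0 and 79.6 percentile, against 88.0 and 88.3 in Sed. The TSS regions of the striated muscle genes (median -0.48, 2 of 3 lower without overlap) and of the fast fiber genes (median -0.95, 2 of 2 lower) were lower in Ex, and those of the 3 fibroblast genes were higher (median 0.46, 3 of 3). The part of these in the member median was not tested.

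H3K4me2 per kb showed no shift like that of H3K27ac. The median centred difference was -0.0042 in mTg against Wt (31 members, SD 0.08) and 0.01 in Ex against Sed (42 members, SD 0.06). In mTg against Wt, 12 members were higher (background 28.4%) and 9 lower (background 28.2%), and in Ex against Sed 15 were higher (background 30.3%) and 9 lower (background 28.1%). In both comparisons 0 members were over 2-fold apart, where 0.724% and 0.0925% of matched regions were. In Sol against Quad the median was -0.16 (SD 0.02) over 47 members, with 25 lower (background 32.2%) and 5 higher (background 40.0%), and Cox6a2 was 1.05 lower, where 1.89% of regions were called. The mTg H3K4me2 library of 6.41 M tags was the shallowest of the marks, and its list was the shortest with 27527 peaks. The member H3K4me2 regions were narrower in mTg (median 2555 bp) than in Wt (4391 bp). Without division by width the mTg median was -0.50, with 4 members over 2-fold apart (no background share is given).

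The deposited lists of differentially acetylated regions hold all 4 libraries of a contrast in 1 normalised table. The regions were chosen for differing, so the fits below measure how far the libraries separate and are no independent evidence. 10 of the 55 members with an H3K27ac peak in mTg or Wt had a region in the mTg hyperacetylated list (18.2%), where 9.22% of all genes with a peak did. For 6 of them the region was a TSS region, where 1.68% of all genes had one. In the mTg hypoacetylated list 2 members had a region, both distal (background 4.38%). In the Ex lists 1 of 54 members had a hyperacetylated region (background 2.34%) and 2 a hypoacetylated one (background 10.6%). 1 of the Ex hypoacetylated regions, at Cox6a2, was a TSS region, where 1.37% of all genes had one.

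All 11 mTg hyperacetylated member regions passed limma's moderated test with Benjamini-Hochberg adjustment over the list, as did 100% of the list. With each library centred on its median over both mTg lists, 9 of the 11 passed and 1549 of the list's 1828 regions. Most regions of both lists together are hyperacetylated, so this centring also takes out part of the increase itself. Ndufa8, an accessory subunit of complex I, had the largest difference of the TSS regions: its region at chr2:36048112-36049691 was at 8.91 and 8.69 (log2 tags of the whole region) in mTg and 7.80 and 7.95 in Wt, a difference of 0.92 (SE 0.13, limma adjusted p = 6.04e-07). Ndufb5 (chr3:32735827-32739815) was at 9.64 and 9.77 against 8.72 and 8.95, a difference of 0.87 (SE 0.13, limma adjusted p = 1.23e-06). Cox5b (chr1:36690685-36692764) was at 8.91 and 8.79 against 7.93 and 8.04, a difference of 0.86 (SE 0.12, limma adjusted p = 9.82e-07). Each of the 3 covers the promoter window printed above, and for each the libraries did not overlap. Cox6c (0.85), Ndufa5 (0.84) and Ndufs4 (0.82) completed the TSS regions.

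The other mTg hyperacetylated regions lay within the gene body or beyond it. Ndufs6, an accessory subunit of complex I, had intronic regions 2497 and 5024 bp from its start with differences of 0.83 and 0.46. Ndufa7 (0.62) and Ndufa12 (0.41) each had an intronic region 3929 and 3879 bp in, the latter the weakest of all at 4.64 and 4.53 in mTg against 4.18 and 4.19 in Wt (SE 0.12, limma adjusted p = 0.00302). Ndufa12 (limma adjusted p = 0.197) and the Ndufs6 region with the smaller difference (limma adjusted p = 0.108) were those lost with centred libraries. The region upstream of Atp5g1, which encodes the same c subunit as Atp5g3, was at 7.02 and 7.01 against 6.10 and 6.36 (0.79). In the hypoacetylated list, where 100% of regions passed, a region 49710 bp downstream of the Ndufa12 start was at 5.34 and 5.21 in mTg against 6.43 and 6.48 in Wt, a difference of -1.18 (SE 0.13, limma adjusted p = 1.87e-07), and a Cox6c region 76308 bp away differed by -0.65. Ndufa12 and Cox6c were thus in both mTg lists at different sites.

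**Figure D4:**
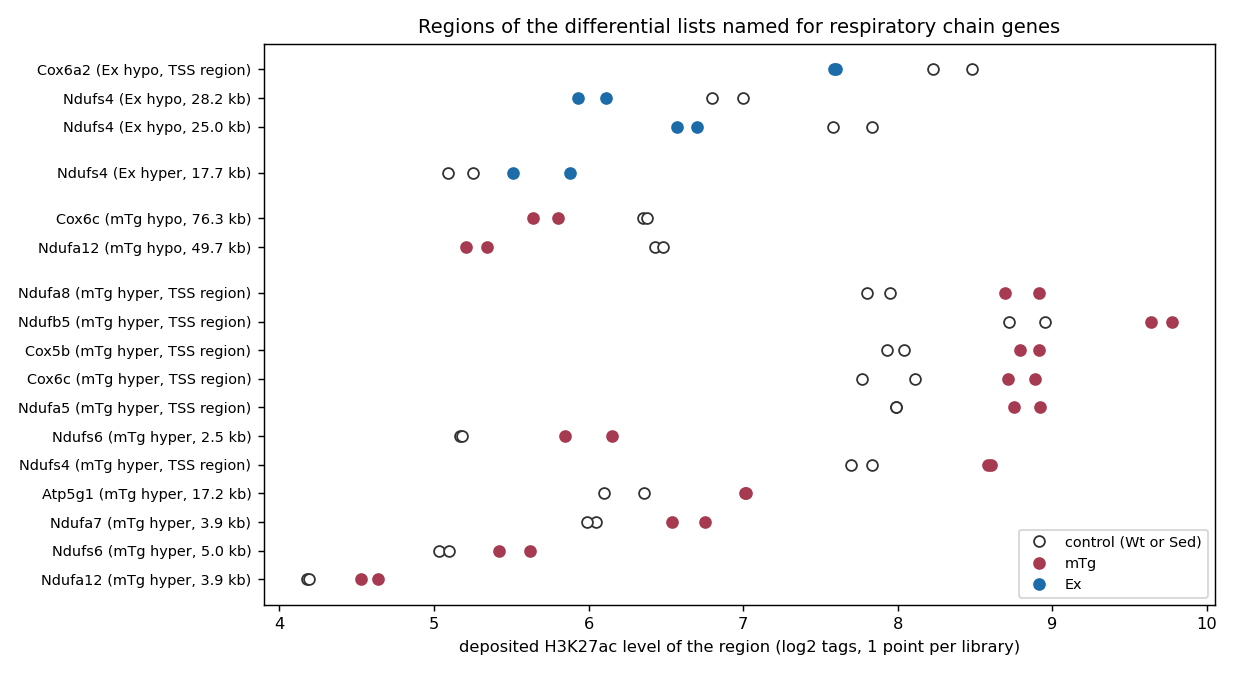
Deposited log2 H3K27ac level, 1 point per library, at the 17 regions of the 4 differential lists named for respiratory chain genes. Open points are controls (Wt or Sed), filled points mTg or Ex, and labels give the list and whether the region is a TSS region or its distance from the start. At each of the 17 regions the filled and open points are separate.

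In the Ex lists the members with a region were Ndufs4 and Cox6a2. Ndufs4, an accessory subunit of complex I needed for its assembly, had 2 intronic hypoacetylated regions: 1 at 6.57 and 6.70 in Ex against 7.58 and 7.83 in Sed (-1.06, SE 0.21, limma adjusted p = 2.71e-05), the other differing by -0.88. It also had an intergenic hyperacetylated region at -17722 bp from its start, at 5.51 and 5.88 against 5.25 and 5.09 (0.52, SE 0.17, limma adjusted p = 0.00411). That call was lost when either Sed library was left out, which leaves 1 sample in Sed. The whole hyperacetylated list lost its calls in at least 1 fit with a library left out, so the loss was not particular to this region. The Cox6a2 TSS region was at 7.59 and 7.60 in Ex against 8.48 and 8.23 in Sed (-0.76, SE 0.21, limma adjusted p = 0.000839). Of both Ex lists 99.7% of regions passed. With each library centred on its median over both Ex lists, none of the 3 hypoacetylated member regions passed (lowest limma adjusted p = 0.299). No other of the 2280 regions of that list passed either, while all 382 of the hyperacetylated list did. Most regions of both lists together are hypoacetylated, so their median carries the decrease itself. This centring therefore cannot weigh the hypoacetylated calls.

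Open chromatin was found at nearly all member starts. In Quad, 52 of 54 member TSS regions held an ATAC peak of control muscle, where 86.4% of genes with a TSS region did, and Ndufb10 and Cox6c were without one. Among the 20% of TSS regions with the highest H3K27ac level the shares were 95% of members (38 of 40) and 98.8% of all genes. MED1, a subunit of the Mediator complex that bridges enhancers and the transcription machinery, was measured in 1 pooled library per muscle. Among promoter class peaks alone a MED1 peak lay in 6 of 31 members in Quad, 5 of 24 in Sol, 6 of 26 in Dia and 0 of 23 in EDL. Over TSS regions one lay in 11 of 54 member TSS regions in Quad (20.4%, background 12.2%), 16 of 53 in Sol (30.2%, background 13.7%), 10 of 52 in Dia (19.2%, background 10.6%) and 4 of 51 in EDL (7.84%, background 2.77%). Among the 20% of TSS regions with the highest H3K27ac level the shares of members and of all genes were 20% and 32.9% in Quad, 34.1% and 30.9% in Sol, 22.2% and 28.2% in Dia and 9.52% and 8.17% in EDL, with the members' share the lower one in Quad and Dia (no test was run).

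**Figure D5:**
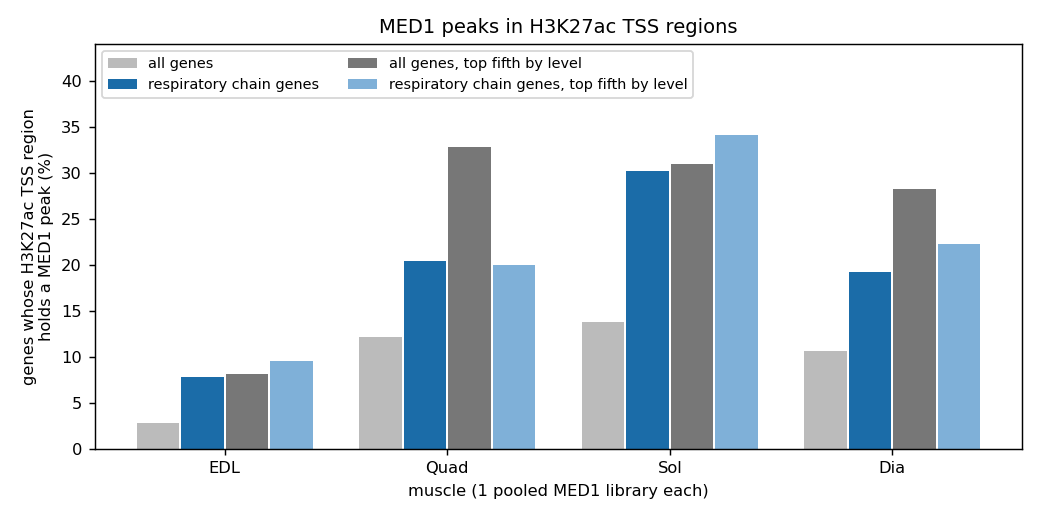
Share of genes with an H3K27ac TSS region that held a MED1 peak, by muscle, for all genes and for the respiratory chain genes, over all TSS regions and over the 20% with the highest H3K27ac level. Over all TSS regions members stand above all genes in the 4 muscles, and among the highest regions they do so in Sol and EDL only.

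Ndufs7, a core subunit of complex I, was the 1 member with a MED1 peak in its TSS region in all 4 muscles, between the 92.5 (Dia) and 99.1 (Sol) percentile of MED1 peak scores. Ndufa4, named for complex I, had one in Dia, Quad and Sol, as did Cox5a. An intergenic peak 6645 to 6847 bp from Atp5h held one of the stronger MED1 peaks in EDL, Quad and Sol (93.0, 98.7 and 99.4 percentile). NFAT, the calcineurin-dependent factor, had no peak in a member TSS region in Quad (0 of 54, background 0.0697%) or Sol (0 of 53, background 3.00%).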

How the data were processed

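The members and lists were chosen with earlier results of these data known. The authors aligned ChIP-seq reads to mm10 with Bowtie (1.2 in the submitters' processing notes), kept unique hits and 1 tag per position, called regions with HOMER and tested both replicates against input with DESeq2 at 2-fold and an FDR of 0.05. The deposited files give, by the authors, a peak score (a tag signal scaled to a fixed total), log2 tag levels per library, a log2 fold over input and an adjusted p-value. The log2 levels were taken to be DESeq2-transformed counts, a scale the sources used here do not spell out. The deposited ATAC signal is scaled in the same way. Columns of the authors' own between-group fold changes and p-values were not used, nor were interval files with no mm10 build.

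Here, the levels were lowered by log2 of the width in kb, and lists were joined by reciprocal overlap of at least 50%, keeping best partners only. The 20% of TSS regions with the highest level were used for comparison. The use of TSS regions for differences and for the other readouts, the 20% comparison, the other control lists and the crossed pairing were added after seeing the data. limma 3.58.1 (R 4.3.3) was fitted within each differential list, with group as the only term and adjustment over all regions of the list. The script was tested on simulated data, where it recovered 91.6% (Ex hyperacetylated list), 68% (Ex hypoacetylated), 93% (mTg hyperacetylated) and 97% (mTg hypoacetylated) of planted differences of 1 on the log2 scale. Per the study's methods each quadriceps sample was 1 muscle of 1 animal, while EDL, Sol and Dia samples were each pooled from several animals. Peak names follow the nearest TSS, so a gene with another start nearby can lose its peak to it. Genes were named by rule: members in a differential list, muscle isoforms, Cycs and 1 core subunit per complex, the widest Quad promoter peaks, the 4 largest non-overlapping promoter differences per comparison, members over 2-fold apart, members mostly without a promoter class peak and those with most distal peaks. Other members named were chosen after their values were seen. Tag totals set the precision, and the shallow libraries are those of mTg.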

Additional observations from a re-analysis of the deposited data

How the results depend on the processing

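Of 346 recomputed values over 73 results, 225 stayed within the limit set for their kind (the spread between libraries for a median, 1.5 times for a count) and 121 moved past it. The label of a reversed call was given to 0, but counts of regions past the threshold in the differential lists could not receive it. Some medians near 0 changed sign and some counts fell to 0, as given below. The counts over 2-fold apart below are given without the share over all regions at the same setting. The promoter counts depended most on the definition. With TSS regions in place of the promoter class they were 51, 54, 53, 52, 52, 48, 53 and 50 for H3K27ac (EDL, Quad, Sol, Dia, Sed, Ex, Wt, mTg) and 48, 49, 51, 52, 49, 48, 52 and 48 for H3K4me2, and with a TSS region or a peak of any name over the start they were 57 in each H3K27ac list and 57, 56, 56, 57, 57, 56, 57 and 54 for H3K4me2. The other readouts were also higher with TSS regions, at 52 (ATAC), 10 (Dia MED1), 4 (EDL MED1), 11 (Quad MED1) and 16 (Sol MED1), and 1 member lay within 1000 bp of a Sol NFAT peak.

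Without division by width the median promoter percentiles were 86.3 (EDL), 83.4 (Quad), 82.9 (Sol), 58.3 (Ex) and 85.8 (mTg). The H3K27ac medians over all member regions became 0.10 (Dia-Quad), 0.21 (EDL-Sol), -0.41 (Ex-Sed) and 0.59 (mTg-Wt), those over TSS regions 0.11 (Dia-Quad), -0.48 (Ex-Sed) and 0.65 (mTg-Wt), and members over 2-fold apart numbered 3 (Dia-Quad), 1 (EDL-Quad), 2 (EDL-Sol), 4 (Ex-Sed) and 12 (mTg-Wt). For H3K4me2 they became -0.061 (Ex-Sed) and -0.42 (mTg-Wt) over all regions and -0.18 (Sol-Quad) and -0.50 (mTg-Wt) over TSS regions, with 1 (Ex-Sed) and 4 (mTg-Wt) members over 2-fold apart. At 80% overlap the H3K27ac medians were 0.19 (EDL-Sol, TSS regions 0.27) and 0.57 (mTg-Wt), the H3K4me2 medians of mTg-Wt -0.18 and -0.16 (TSS regions), and members over 2-fold apart 1 (Sol-Quad), 0 (Dia-Quad), 1 (EDL-Quad), 0 (EDL-Sol), 1 (Dia-EDL), 1 (mTg-Wt) and 0 (Sol-Quad H3K4me2). Centred on shared promoter regions, the medians were -0.075 (Dia-Quad), 0.0085 (EDL-Sol) and 0.33 (mTg-Wt, TSS regions 0.50). With Quad as control they were 0.38 (mTg) and -0.56 (Ex). The cause was not tested.

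Leaving out 1 library gave median promoter percentiles of 91.2 to 91.9 (EDL), 87.8 to 88.1 (Quad), 87.2 to 90.1 (Sol), 83.1 to 86.7 (Dia) and 88.6 to 90.0 (mTg). H3K27ac medians ran from -0.093 to 0.034 (Sol-Quad, TSS regions -0.13 to 0.044), from -0.088 to 0.13 (Dia-Quad, TSS regions), from 0.067 to 0.21 (EDL-Sol, TSS regions), from -0.39 to -0.19 (Ex-Sed, TSS regions) and from 0.39 to 0.48 (mTg-Wt, TSS regions 0.51 to 0.63). H3K4me2 medians ran from -0.17 to -0.12 (Sol-Quad, TSS regions -0.16 to -0.12), from -0.034 to 0.082 (Ex-Sed, TSS regions -0.041 to 0.086) and from -0.10 to 0.069 (mTg-Wt, TSS regions -0.045 to 0.13). Members over 2-fold apart ran from 1 to 3 (Sol-Quad, EDL-Quad, Dia-EDL), 1 to 2 (Dia-Quad, EDL-Sol), 0 to 3 (Ex-Sed), 2 to 5 (mTg-Wt) and 0 to 1 (H3K4me2 Sol-Quad and Ex-Sed).

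Members in the differential lists numbered 0 (Ex hyperacetylated), 1 (Ex hypoacetylated) and 1 (mTg hypoacetylated) at an adjusted p-value under 0.001, and 0 in each of these 3 lists within 10 kb of a member promoter peak. Centred libraries left 0 of the 3 Ex hypoacetylated member regions, where the centring takes out the shared decrease itself. The Ex hyperacetylated member region lost its call in some fits with a library left out, and the whole list did in at least 1 such fit. With the replicate number as a block, the member regions past the threshold were 1, 3, 11 and 2 (Ex hyperacetylated, Ex hypoacetylated, mTg hyperacetylated, mTg hypoacetylated), as without it. Over the regions of each list, the deviations of same-numbered libraries from their group means correlated at 0.14, 0.11, -0.04 and -0.24. The numbers were therefore not taken to pair the samples. With the numbers crossed, 844 of 844 mTg hypoacetylated regions passed, as in both other fits.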

Other observations

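Genes related to the respiratory chain but outside the 57 were measured in the same way, on lists that were also chosen with earlier results known. In mTg against Wt, 25 further respiratory chain genes gave 17 H3K27ac TSS regions with a median centred difference of 0.58, of which 14 were higher in mTg without overlap of libraries and 1 lower. The 12 citric acid cycle genes gave 11 TSS regions with a median of 0.39, 9 higher and 1 lower. The 12 mitochondrial regulators gave 7 with a median of 0.26, 5 higher and 0 lower. Over all TSS regions of mTg against Wt the median was 0.09, with 38.3% higher and 25.3% lower.

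In Ex against Sed the further respiratory chain genes gave 16 TSS regions with a median of -0.24, 9 lower and 1 higher. The citric acid cycle genes gave 11 with a median of -0.30, 5 lower and 1 higher. The regulators gave 8 with a median of -0.33, 4 lower and 1 higher. Over all TSS regions of Ex against Sed the median was -0.02, with 23.2% lower and 26.3% higher. In Sol against Quad the medians were -0.10 (19 further respiratory chain genes), 0.04 (11 citric acid cycle genes) and -0.03 (8 regulators). Over all TSS regions it was -0.01.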
